A study of Mus musculus with 3 samples.

Results

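Cells that held transcripts of both Six2 and Foxd1 made up 128 of the 7898 cells kept from a single-cell RNA sequencing study of nephron progenitors of the fetal mouse kidney. The progenitors came from Six2GFP+ embryos at E14.5, with no further genotype or treatment named, and all 3 samples belong to 1 group, so there is no untreated or wild-type comparison. Kidneys of several litters were pooled per tube, cells were sorted for Six2-driven fluorescence with dead cells and doublets gated out, and the 3 tubes were run side by side with the 10x Chromium version 2 chemistry. The reporter sets which cells enter: a stromal cell without reporter fluorescence would not be collected, and protein from earlier Six2 expression can keep a cell in the gate. Libraries 1, 2 and 3 are named here by the suffix of their cell barcodes.

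Six2 (ENSMUSG00000024134, mm10 chromosome 17, 85684277 to 85688274) encodes a homeobox protein that holds nephron progenitors in a self-renewing state. Foxd1 (ENSMUSG00000078302, chromosome 13, 98354242 to 98359305) encodes a forkhead protein that marks the neighbouring stromal progenitors, the source of interstitial cells, mural cells and mesangium. The nephron and stromal lineages derive from early mesenchyme and are usually described as separate in the growing kidney.

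Members were selected on their own counts, as cells with at least 2 Foxd1 unique molecular identifiers (UMIs, each standing for 1 captured transcript), at least 1 Six2 UMI, and 0 UMIs of the fibrillar collagen genes Col1a1, Col1a2 and Col3a1 and of Wnt4, the signal that starts epithelial conversion. Foxd1 was found in 1384 of the 7898 kept cells, in 1184 of them as a single UMI and in 200 as 2 or more. Of these 200, 168 also held Six2, 133 of those held none of the 3 collagens, and 128 held no Wnt4 either. The members numbered 49 in library 1, 28 in library 2 and 51 in library 3. These were 1.62% of kept cells in library 1 (95% exact binomial interval 1.20 to 2.14%), 1.01% in library 2 (0.675 to 1.46%) and 2.41% in library 3 (1.80 to 3.16%), a mean of 1.68% ± 0.701 (SD, n = 3). The intervals cover counting error only. Library 2 had the lowest share and also the shallowest members, at a median of 15390.5 UMIs, against 18707 in library 1.

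The Foxd1 signal of a member was small. Among the 128 members, 105 held 2 Foxd1 UMIs, 18 held 3, 4 held 4 and 1 held 5. Six2 ranged from 1 to 10 UMIs per member with a median of 2. Just outside the limit lay 786 cells with exactly 1 Foxd1 UMI that met every other condition. Six2 was at 133, 188 and 160 CPM (UMI counts scaled to a total of 1000000 over the summed cells) in these single-UMI cells in libraries 1, 2 and 3. It was at 141, 163 and 153 CPM in the members with 2 Foxd1 UMIs, at 162, 182 and 116 CPM in the 23 members with 3 or more, and at 143, 206 and 155 CPM in the 4200 cells that met the other conditions but lacked Foxd1. The Six2 level thus showed no order across the 4 Foxd1 classes that held in all 3 libraries.

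Whether Foxd1 was found more or less often in cells with more Six2 was read from the kept cells. Of 73 immune cells, those without Six2 were left out, and the few with Six2 stayed in their classes. As deposited, a Foxd1 UMI was present in 15.8% of cells without Six2, 16.7% with 1 Six2 UMI, 18.2% with 2 and 19.1% with 3 or more. Median depth rose over the same classes from 12990.5 to 16247 UMIs. With every cell thinned at random to 8000 UMIs, and 449 shallower cells left out (2 of them members), the share was 10.3% in cells left without Six2 (281 of 2740; interval 9.14 to 11.5%). It was 9.96% with 1 Six2 UMI (242 of 2430; 8.80 to 11.2%), 10.2% with 2 (143 of 1401; 8.67 to 11.9%) and 10.1% with 3 or more (84 of 832; 8.13 to 12.3%). At matched depth the 4 shares lay within each other's intervals, and the order differed between libraries. Cells without a Six2 UMI, immune cells left out, numbered 1450 as deposited and 2740 after thinning. The thinned class without Six2 thus includes cells in which Six2 had been found.

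**Figure D1:**
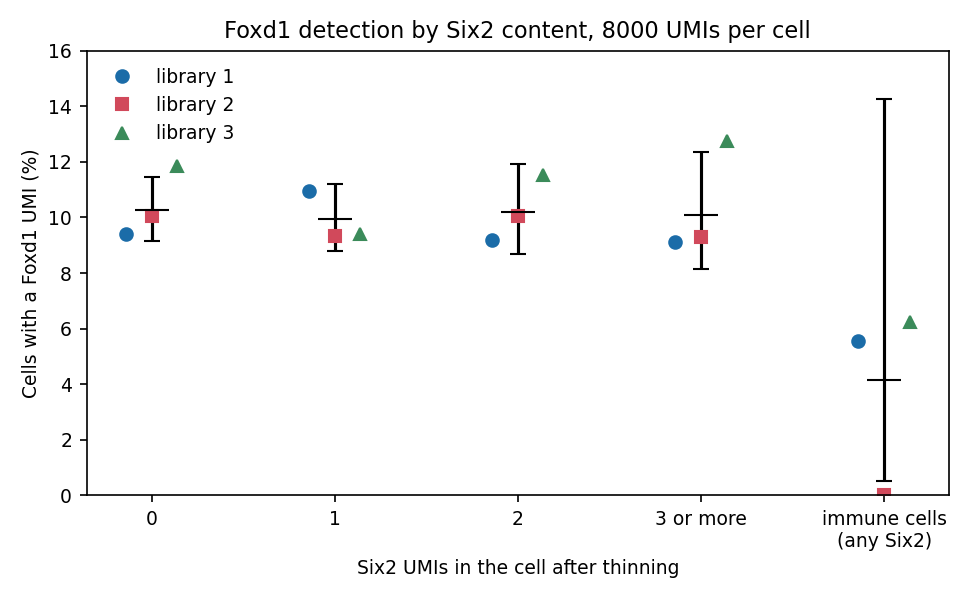
Share of cells with at least 1 Foxd1 UMI (vertical axis, %) by the number of Six2 UMIs in the cell (horizontal axis) after each cell was thinned to 8000 UMIs; coloured points are the 3 libraries, black bars the pooled share with its 95% exact binomial interval. The 4 Six2 classes sit between 9.96% and 10.3%, and immune cells, with only 48 cells, at 4.17% with an interval that reaches 14.3%.

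Immune cells, identified by at least 3 of 6 immune markers, should lack both genes and were taken as a gauge of background. A Foxd1 UMI was present in 3 of 73 immune cells (4.11%; interval 0.856 to 11.5%), at a median depth of 9468 UMIs, and in 2 of 48 after thinning (4.17%; 0.509 to 14.3%). Six2 was likewise present in 4.11% of immune cells. The level of Foxd1 was 4.91 ± 5.60 CPM in immune cells and 13.6 ± 1.06 CPM in all kept cells (SD, n = 3). Six2 was at 12.3 ± 10.7 and 138 ± 28.8 CPM in the same sets. At least 2 Foxd1 UMIs were found in 1 of 73 immune cells (1.37%; 0.0347 to 7.40%), against 2.21% of cells without Six2 and 2.75% of cells with 3 or more Six2 UMIs. That 1 immune cell, in library 1, held all 6 immune markers and also Six2 and a collagen UMI. Whether it was a mixture of cells was not tested. These shares as deposited were at unlike depths. After thinning, 0 of 48 immune cells held at least 2 Foxd1 UMIs (interval 0 to 7.40%). The thinned shares were 0.584%, 0.535%, 1.14% and 0.361% in cells with 0, 1, 2 and 3 or more Six2 UMIs. With at most 1 such immune cell, the share at the member limit could not be separated from that of immune cells. The variance of Foxd1 UMIs over cells at 8000 UMIs, divided by their mean, was 0.988, 1.03 and 1.1 in libraries 1, 2 and 3, where counting alone gives 1. The same ratio for Six2 was 1.21, 1.18 and 1.12. Mean UMIs at this depth were 0.103, 0.103 and 0.122 for Foxd1 and 0.874, 1.37 and 1.05 for Six2. The excess of the ratio over 1 depends on the mean, so the 2 genes cannot be compared by it. The Foxd1 ratio was near 1 in libraries 1 and 2 and highest in library 3, which also had the highest share of members. No error was computed for these ratios.

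To describe the members beyond the genes that chose them, each was compared with the 5 nearest cells in total UMIs from its own library that held Six2 and neither Foxd1 nor the 3 collagens. The 128 members and 640 matched cells had median depths of 17406.5 and 17425.5 UMIs. Mitochondrial genes took 3.23% ± 0.0275 of UMIs in members and 3.29% ± 0.0859 in matched cells, and ribosomal protein genes 19.4% ± 6.0 and 19.4% ± 5.92 (SD, n = 3). Barcodes with 10 or more A and T bases among 16 were less frequent in members, at 8.85% ± 4.17 against 13.9% ± 1.5. Doublet scores gave no working call: 20 of the 7898 cells (0.253%) were marked, none of them members, so doublets have to be taken as still present. The 6% of cells with the highest scores took 4.66% ± 4.12 of members and 7.64% ± 1.70 of matched cells. A barcode occurred in more than 1 library for 44 kept cells, 1 of them a member.

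In their marker levels the members were close to matched progenitors and low in stroma markers. Both groups had to hold Six2 and 0 UMIs of the 3 collagens. The likeness was therefore partly set by the choice of cells and is a description. The summed level of 22 progenitor regulators was 2944, 4007 and 3226 CPM in members of libraries 1, 2 and 3, and 2898, 4094 and 3208 CPM in matched cells. The groups overlapped, and the difference between libraries exceeded that between groups. Of these genes 21 could be tested and none rose or fell (edgeR's quasi-likelihood test, adjusted p threshold 0.05). Over all 10956 genes tested 0.228% did, so no call in 21 genes says little. Their median log2 difference was 0.01, with a range from -0.76 to 0.38. Eya1, the phosphatase that partners Six2, was at 200, 343 and 235 CPM in members and 201, 341 and 232 CPM in matched cells, a log2 difference of 0.01 ± 0.07 (SE). It was detected in 95.3% of members and 92.5% of matched cells. Osr1, a zinc-finger factor of the early kidney mesenchyme, differed by 0.12 ± 0.08, and Wt1, a zinc-finger factor needed for kidney formation, by 0.03 ± 0.06. Pax2, the paired-box factor of nephron-forming mesenchyme, differed by -0.08 ± 0.09. Cited1, a co-regulator found in the least committed progenitors, was at 162, 110 and 199 CPM in members and 130, 190 and 183 CPM in matched cells. Its members' level was lower than that of matched cells in library 2 and higher in the other libraries, for a log2 difference of 0.03 ± 0.10. Cited1 was detected in 63.3% of members and 65.6% of matched cells.

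The 10 defining stroma markers were low in both groups, each chosen for 0 UMIs of the 3 collagens. They summed to 15.95, 4.40 and 19.3 CPM in members and 12.6, 16.3 and 15.4 CPM in matched cells. Members were higher in libraries 1 and 3 and lower in library 2. At least 1 UMI of these genes was present in 28 of 128 members (21.9%) and 134 of 640 matched cells (20.9%). Pdgfra and Tbx18, a growth factor receptor and a T-box factor of stromal cells, and the matrix genes Col6a3 and Ogn were at 0 in all members. A count of 0 of 128 cells allows a share of up to 2.34% with a UMI. Pdgfrb, Lum and Postn were found in 2, 1 and 2 members, Fibin in 5, Mgp in 9 and Dcn, which encodes the matrix proteoglycan decorin, in 10. Dcn was detected in 7.81% of members and 7.66% of matched cells. Only Dcn and Mgp were abundant enough for the test, and neither passed it (log2 differences 0.29 ± 0.48 and -0.48 ± 0.51).

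Of 18 broader stromal genes 11 were tested and none passed, where 0.228% of all genes tested did. Their median log2 difference was 0.18. Meis1, a homeobox gene of stroma, was at 55.3, 55.0 and 89.9 CPM in members and 66.8, 96.5 and 69.1 CPM in matched cells. Meis2 was at 674, 623 and 638 CPM in members and 563, 599 and 572 CPM in matched cells, higher in members of all 3 libraries, with a log2 difference of 0.18 ± 0.05 and an adjusted p of 0.164. Markers of ureteric, immune, endothelial and erythroid cells were at or near 0 in members. Of 8 ureteric genes 7 were at 0, of 6 immune genes Cx3cr1, Fcer1g and Ptprc, of 6 endothelial genes 4, and of 6 erythroid genes 5. The summed immune markers were at 2.14 to 5.32 CPM in members over the 3 libraries and at 1.29 to 4.04 CPM in matched cells. Other lists were plainly expressed in both groups. The 6 mural and muscle genes, led by Des, summed to 299.9, 328 and 316 CPM in members and 323, 432 and 305 CPM in matched cells. The 6 neural genes, led by Elavl4, summed to 76.6, 63.8 and 59.9 CPM in members and 51.7, 62.5 and 50.6 CPM in matched cells. The 10 podocyte genes, led by Cdkn1c, summed to 1868, 1831 and 1985 CPM in members and 1367, 2051 and 1554 CPM in matched cells.

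Cells rich in collagen transcripts were present in the sort and served as a stromal reference. Of these, 53.5% also held Six2 and 21.1% held at least 2 Foxd1 UMIs, so the reference was mixed. A total of 71 cells held at least 5 UMIs summed over the 3 collagens, and the defining stroma markers summed there to 552, 526 and 625 CPM, far above every member value. The rule left out 3 sets of cells with 2 or more Foxd1 UMIs. The 35 with Six2 and a collagen UMI had 110, 82.9 and 223 CPM of defining stroma markers. The 32 without Six2 had 394, 137 and 195 CPM, and both sets lay between members and collagen cells in each library. Collagen cells with 2 or more Foxd1 UMIs are also counted in these 2 sets. The 5 with Six2 and Wnt4 but no collagen had 0, 25.1 and 213 CPM, below the members in library 1. A collagen UMI was itself a ground for leaving cells out, so this order is a description and not a test.

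**Figure D2:**
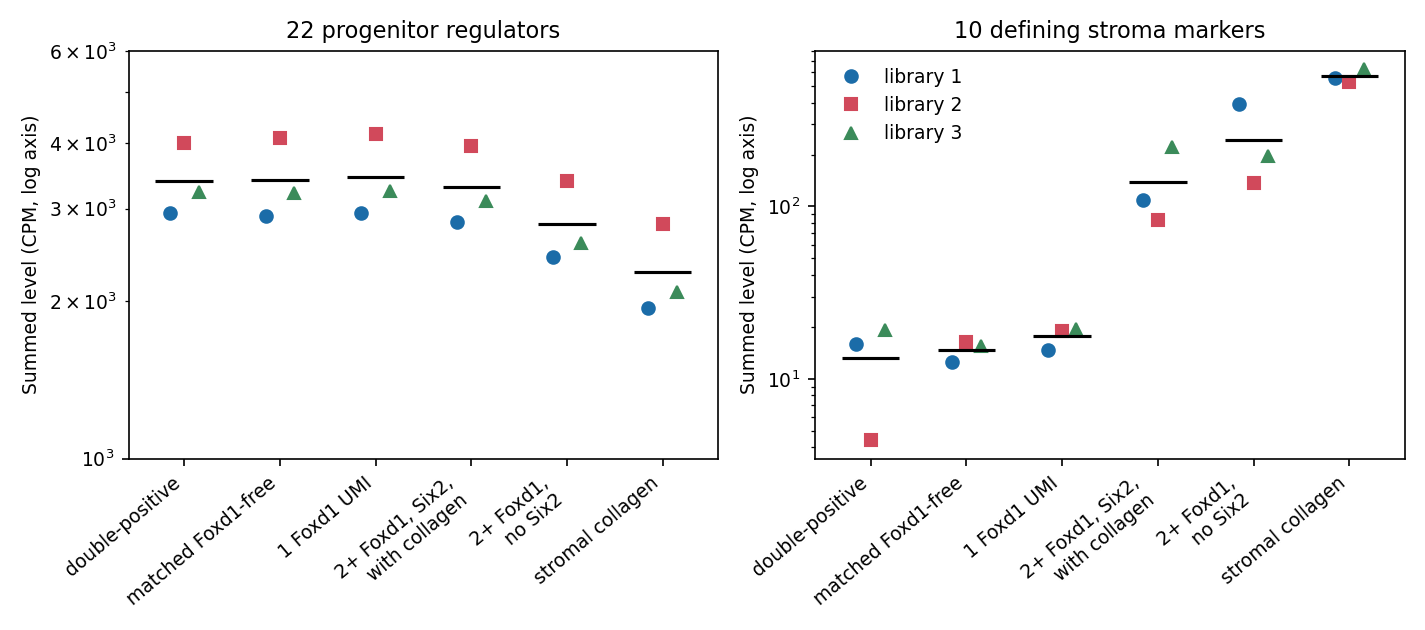
Summed level in CPM (vertical axes, logarithmic) of the 22 progenitor regulators and of the 10 defining stroma markers, in 6 groups of cells; points are libraries and bars their means. Members and matched cells overlap in both panels, while collagen cells lie lower for progenitor regulators and at 526 to 625 CPM for stroma markers.

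Set beside the collagen cells, members carried more progenitor transcripts and few stromal ones. The rule asks members for Six2 and for 0 collagen UMIs, and the reference cells were picked for at least 5 collagen UMIs, so the direction of these differences was largely set by the choice of cells and the values are a description. Of 6016 genes 531 (8.83%) passed the threshold, a count from which nothing is read here. Without library 1 it was 330. Pax2 was at 114, 172 and 142 CPM in members and 60.7, 101 and 70.4 CPM in collagen cells, and was detected in 82.0% of members and 46.5% of collagen cells. Eya1 was detected in 95.3% and 59.2%, and Cited1 in 63.3% and 40.8%. Each library had higher Pax2 in members. The median log2 difference of the 19 progenitor regulators with enough counts was 0.61. Dcn was at 5.32, 0 and 10.7 CPM in members and 186, 163 and 149 CPM in collagen cells. Meis1 was at 161, 179 and 144 CPM in collagen cells, above the member level in every library. Dlk1, a membrane protein that restrains differentiation, was at 2.13, 4.40 and 3.21 CPM in members and 136, 479 and 202 CPM in collagen cells.

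Against the matched progenitors few genes differed. Of 10956 genes tested, 25 passed the threshold (0.228%), 19 higher and 6 lower in members, and 764 had an unadjusted p under 0.05. The direction was the same in all 3 libraries for 13 of the 25. Differences were mostly small: of the 15 called genes at 100 CPM or more in matched cells, none moved by more than 0.72 on the log2 scale. Library was a block in the fit, so the p-values rest on how differences between cell sets varied over 3 pooled tubes. That spread was estimated from 12 sums together, most of more cells than the member sums, and may be technical. The calls depended on how the sums were compared. With 1 matched cell per member and only these sums in the fit, so that both held equal numbers of cells, 1 gene passed (Peg3), DESeq2 called 3 (Xist, Peg3 and H19), and without library 1 the calls were 2 (Xist and Hspa1a). Without library 3 they were 5 (Xist, Peg3, Actb, Hist1h2ap and Gm26737), and without library 2, the smallest in members, they were 60.

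Xist (ENSMUSG00000086503, chromosome X), the noncoding RNA that silences 1 X chromosome in female cells, had the smallest p. It was at 860, 172 and 765 CPM in members and 595, 145 and 542 CPM in matched cells. Members were higher in every library, although library 2 was low in both groups. The log2 difference was 0.50 ± 0.06 (adjusted p = 9.51e-08). Cells with Xist and cells with Y-linked transcripts occurred in each library: 53.1%, 32.1% and 66.7% of members in libraries 1, 2 and 3 held Xist and no Y-linked UMI, against 49.0%, 30.0% and 55.7% of matched cells. Cells were also matched for Xist and Y-linked detection, by class: Xist only, Y-linked only, or any other. The last class joins cells with both and cells with neither. With this match the Xist difference was 0.35 ± 0.06 (adjusted p = 0.000193), smaller but still past the threshold.

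Imprinted growth genes moved in both directions. Peg3 (chromosome 7), a paternally expressed zinc-finger gene, was at 492, 541 and 512 CPM in members and 376, 426 and 415 CPM in matched cells, with no overlap between the groups. It rose by 0.35 ± 0.05 (adjusted p = 2.46e-05) and was the gene that passed with equal numbers of cells, at 0.46 ± 0.08 (adjusted p = 0.0444). H19 (chromosome 7), a maternally expressed noncoding RNA that restrains growth, was at 373, 539 and 393 CPM in members and 526, 573 and 542 CPM in matched cells. It fell by 0.38 ± 0.06 (adjusted p = 8.65e-05), with members lower in every library. Mest rose by 0.24 ± 0.04 and Cdkn1c, a cell cycle inhibitor also found in podocyte precursors, by 0.27 ± 0.05, but each was lower in members of library 2. Igf2, the growth factor whose gene neighbours H19, differed by -0.35 ± 0.13 without passing (adjusted p = 0.418). Of the 12 listed imprinted genes, all tested, 3 rose and 1 fell, with a median of -0.06, where 0.228% of all genes tested passed.

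Among surface and secreted proteins of progenitors 2 genes rose, and neither passed in every setting. Ifitm1, an interferon-inducible membrane protein, was at 91.5, 44.0 and 149 CPM in members and 68.1, 34.4 and 82.4 CPM in matched cells, and rose by 0.65 ± 0.12 (adjusted p = 0.00228). It was detected in 66.4% of members and 50.8% of matched cells. Pgf, placental growth factor, was at 65.9, 117 and 130 CPM against 60.9, 96.5 and 66.3 CPM, and rose by 0.54 ± 0.13 (adjusted p = 0.0434). Most of that increase lay in library 3. Of the 11 genes of this list, 2 rose and 9 had a positive difference, with a median of 0.44, and without library 1 the median was 0.09. Over all 10956 genes tested 0.228% passed and 5477 had a positive difference. None of the list passed with cells also matched for Xist and Y-linked detection, with DESeq2, or without library as a block. The same held without library 1 and without library 3, while 3 passed without library 2. Over 19 other settings Ifitm1 passed in 10 and Pgf in 6. Outside the list, Slc31a2, a copper transporter, was at 28.7, 35.2 and 31.0 CPM in members and 11.9, 24.5 and 17.4 CPM in matched cells, a rise of 0.90 ± 0.21 (adjusted p = 0.0342) with no overlap of the groups. Ptn, the secreted growth factor pleiotrophin, rose by 0.33 ± 0.08 (adjusted p = 0.0434), with the widest gap in library 1, where it was at 248 CPM in members and 160 CPM in matched cells. Over the same 19 settings Slc31a2 passed in 6 and Ptn in 4.

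**Figure D3:**
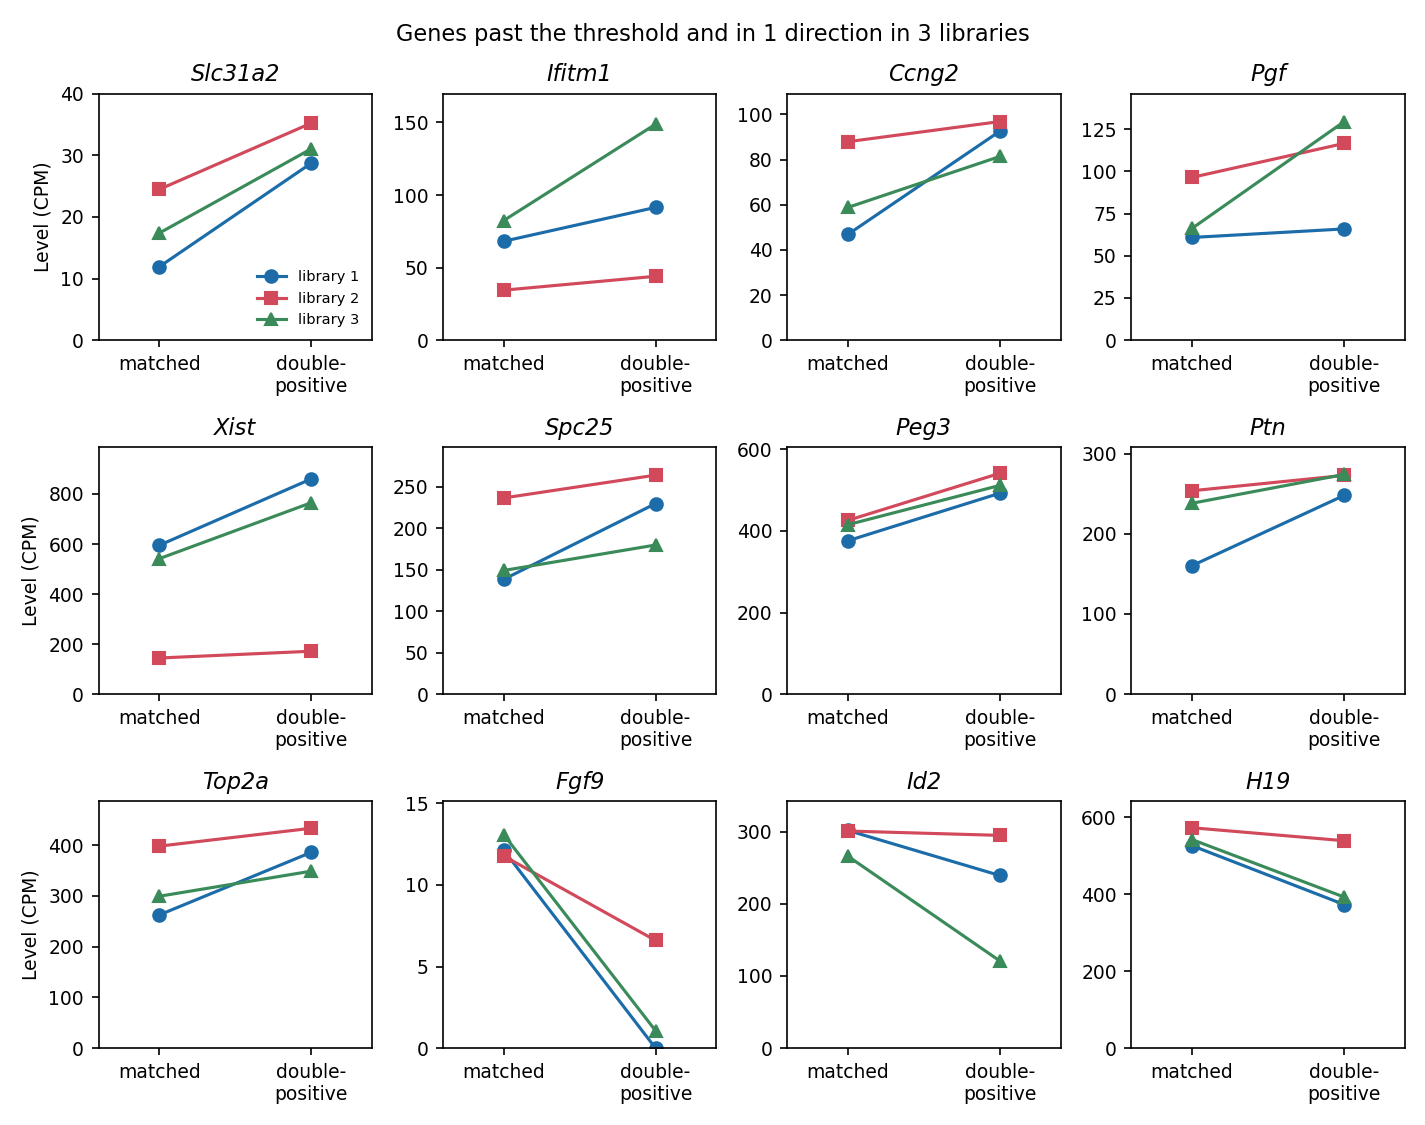
Level in CPM (vertical axes, starting at 0) of the 12 genes that passed the threshold, had at least 10 CPM in 1 group and moved in 1 direction in all 3 libraries; each line joins matched and double-positive cells of 1 library. Peg3 and Slc31a2 separate the groups without overlap, while Xist and Ifitm1 differ more between libraries than between groups.

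Of the mitotic genes 1 of 51 rose, where 0.228% of all genes tested passed, and most others had small positive differences. The 51 genes of G2 and M phase summed to 7267, 9949 and 7190 CPM in members and 6420, 8879 and 6722 CPM in matched cells, higher in members of every library. A single gene of the list passed, Top2a, the topoisomerase that untangles replicated DNA, at 386, 433 and 349 CPM against 263, 398 and 300 CPM (0.32 ± 0.08, adjusted p = 0.0434). Of the 51 differences 45 were positive, with a median of 0.22, against a median of 0.00 over all genes. With 1 match per member the median was 0.09, and among members with at least 3 Foxd1 UMIs it was -0.17. Spc25, a kinetochore subunit outside the list, was at 230, 264 and 180 CPM in members and 138, 237 and 149 CPM in matched cells, and rose by 0.42 ± 0.09 (adjusted p = 0.021). Ccng2, which encodes a cyclin tied to cell cycle exit, was at 92.5, 96.8 and 81.3 CPM against 46.8, 87.9 and 58.8 CPM and rose by 0.58 ± 0.13 (adjusted p = 0.024). Of 42 S phase genes none passed, 14 differences were positive, and the median was -0.07. Without matching for depth all 51 mitotic differences were positive with a median of 0.62.

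Of the genes listed for committing progenitors, Fgf9 and Sct fell, where 0.228% of all genes tested passed. The list includes Fgf9 although it supports progenitor survival, so no degree of commitment is read from its fall. All 10 tested genes of that list had negative differences, with a median of -0.78, where 5477 of all 10956 genes tested had positive ones. Genes low in members could pass the filter on low counts through the other sums. With that filter lifted, 11 were tested and 1 was positive, with a median of -0.76. The median was -0.40 without library 1 and -1.14 without library 2. The list summed to 189, 378 and 185 CPM in members and 344, 325 and 311 CPM in matched cells, so members were lower in libraries 1 and 3 and higher in library 2. The rule bears on this list: members hold no Wnt4, whereas 41 of 640 matched cells (6.41%) did. With comparison cells also free of Wnt4 the median was -0.59. Fgf9, a growth factor that supports progenitor survival, was at 0, 6.60 and 1.07 CPM in members and 12.1, 11.8 and 13.1 CPM in matched cells. These levels rest on 4 UMIs in 4 members and 144 UMIs in 103 matched cells, so Fgf9 was detected in 3.12% of members and 16.1% of matched cells. The log2 difference was -2.83 ± 0.54 (adjusted p = 0.00293), and -2.67 ± 0.56 (adjusted p = 0.0175) against cells without Wnt4. Sct, the peptide hormone secretin, rested on 5 UMIs in members and fell by 2.27 ± 0.52 (adjusted p = 0.0342). It did not pass against cells without Wnt4 (adjusted p = 0.256). Pax8, a paired-box factor of committing cells, was at 20.2, 33.0 and 11.8 CPM in members and 39.4, 34.0 and 31.3 CPM in matched cells, a difference of -0.85 ± 0.23 that did not pass (adjusted p = 0.178). Id2, a helix-loop-helix inhibitor induced by BMP signals, was at 239, 295 and 121 CPM against 302, 301 and 266 CPM. It fell by 0.50 ± 0.11 (adjusted p = 0.021), but not against cells without Wnt4 (-0.34 ± 0.11, adjusted p = 0.416), and the libraries ranged from near equality in library 2 to the widest gap in library 3. Ung, a DNA repair glycosylase, was the remaining gene named for a decrease, at -0.35 ± 0.09 without passing (adjusted p = 0.171).

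Signalling and structural lists held few calls. Over all 10956 genes tested 0.228% passed, a share at which lists this short hold few calls or none. The counts below are therefore a description. Of the FGF and ERK genes 1 of 17 changed (Fgf9), and of the BMP and TGF-beta genes 1 of 16 (Id2). None passed among 18 Wnt, 9 Notch, 10 retinoid, 28 Hox, 25 integrin and matrix, 14 glycolysis, 44 oxidative phosphorylation or 101 ribosomal protein genes. The same held for 20 guidance and chemokine genes (median 0.18), 13 forkhead genes other than Foxd1 (median 0.10), 6 class II antigen genes, 6 epithelial junction genes, and 8 genes of cadherins and mesenchymal repressors. Early nephron, neural, and mural and muscle genes had 2 tested members each and no call. Among podocyte genes 1 of 3 tested passed, Cdkn1c, with a list median of 0.27. The most abundant genes of these lists had small differences. Hoxa10, a patterning gene, differed by -0.03 ± 0.06, Ctnnb1, which encodes beta-catenin, by 0.07 ± 0.06, and Hes1, a Notch target, by 0.11 ± 0.06. The guidance receptors Robo2 and Nrp1 differed by -0.05 ± 0.06 and 0.24 ± 0.08, and the forkhead gene Foxp1 by 0.24 ± 0.08, none of them past the threshold (adjusted p = 0.928, 0.334 and 0.319). None of the ureteric, immune, endothelial or erythroid genes was abundant enough for the test. Of 22 immediate early and stress genes 1 rose, the heat shock gene Hspa1a. It was at 3.19, 59.4 and 39.6 CPM in members and 5.11, 17.2 and 12.01 CPM in matched cells, lower in library 1 and higher in the others. The list took 0.561% ± 0.137 of UMIs in members and 0.538% ± 0.168 in matched cells (SD, n = 3).

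**Figure D4:**
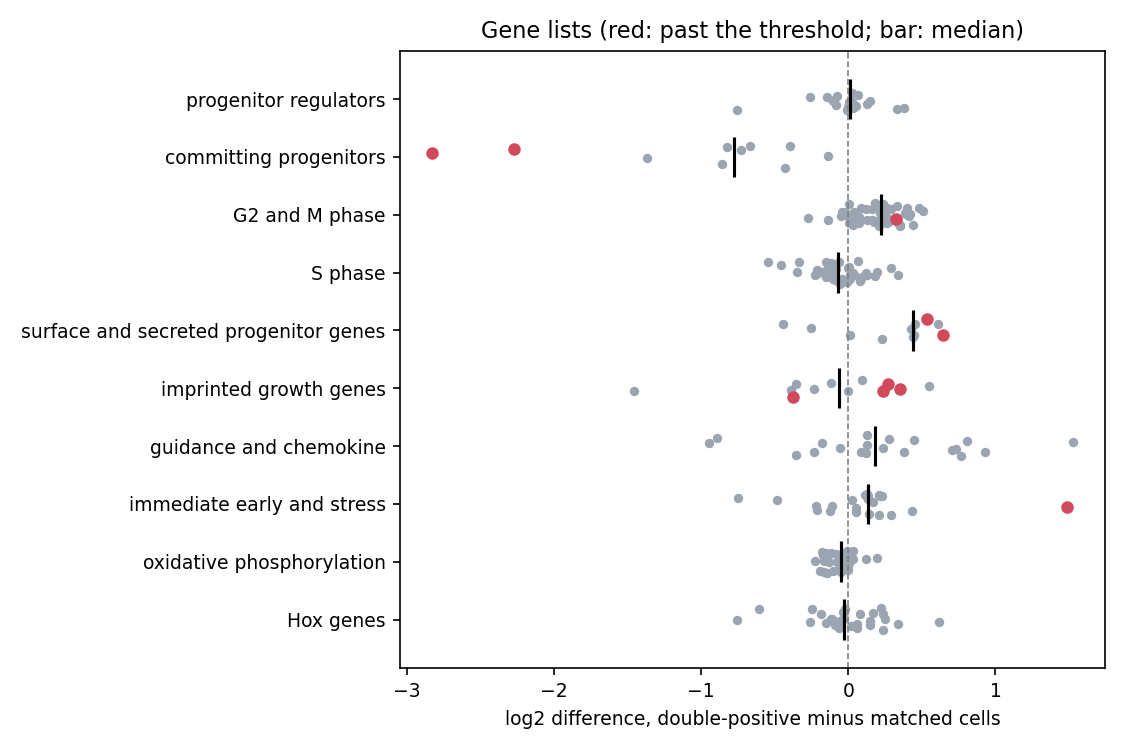
Fitted log2 difference of double-positive minus matched cells (horizontal axis) for the genes of 10 lists; each point is a gene, red points passed the threshold, and black bars are list medians. Progenitor regulators centre on 0.01, G2 and M phase genes on 0.22 and committing genes, a list the selection on Wnt4 bears on, on -0.78 (-0.40 without library 1; their sum is higher in members of library 2).

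Cells with a single Foxd1 UMI gave a second look at the same differences in cells the rule did not use. These 786 cells were matched 1 to 1 with Foxd1-free cells, none shared with the first set. Of 10956 genes 15 passed (0.137%), 12 higher and 3 lower, and 7 of these were among the 25 of the members. Both contrasts come from 1 fit. Without library 1 the count was 2. Single-UMI cells were chosen for 0 Wnt4 UMIs, whereas their matched cells could hold Wnt4. Against cells without Wnt4, 7 genes passed and all were higher, so none of the 3 decreases passed there. Phlda1, a target of receptor tyrosine kinase signalling, rose by 0.35 ± 0.05 in single-UMI cells (adjusted p = 7.57e-06) and by 0.40 ± 0.07 in members. It was at 282, 474 and 353 CPM in single-UMI cells and 236, 345 and 278 CPM in their matched cells, higher in each library. H19 fell by 0.19 ± 0.04 (adjusted p = 0.0171), Id2 by 0.33 ± 0.07 (0.0171), and Ifitm1 rose by 0.34 ± 0.07 (0.0247). Ptn, Nnat and Cdkn1c also rose in both sets of cells. Peg3 had 0.14 ± 0.03 and narrowly missed the threshold (adjusted p = 0.0544). Fgf9, by contrast, was at 6.78, 10.1 and 7.81 CPM in single-UMI cells and 8.99, 7.16 and 10.1 CPM in their matched cells, a difference of -0.16 ± 0.21. Progenitor regulators again had no call, with a median of -0.02, and 48 of 51 mitotic genes had a positive difference with a median of 0.14 and no call, although their sum was lower in single-UMI cells of library 3 (5850 against 5958 CPM).

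The contrast of members was compared directly with that of single-UMI cells. The difference passed for 2 of 10956 genes (0.0183%), Xist and Actb, and 560 had an unadjusted p under 0.05. Xist differed from matched cells by 0.50 in members and by 0.14 in single-UMI cells. The test of the difference was not run with cells matched for Xist and Y-linked detection. Actb, the cytoskeletal actin, was at 1726, 1714 and 1982 CPM in members and 2403, 1902 and 1938 CPM in matched cells, so it was lower in libraries 1 and 2 only. Its log2 difference was -0.20 ± 0.05 in members and 0.08 ± 0.03 in single-UMI cells. The other called genes were not shown to differ between members and single-UMI cells.

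**Figure D5:**
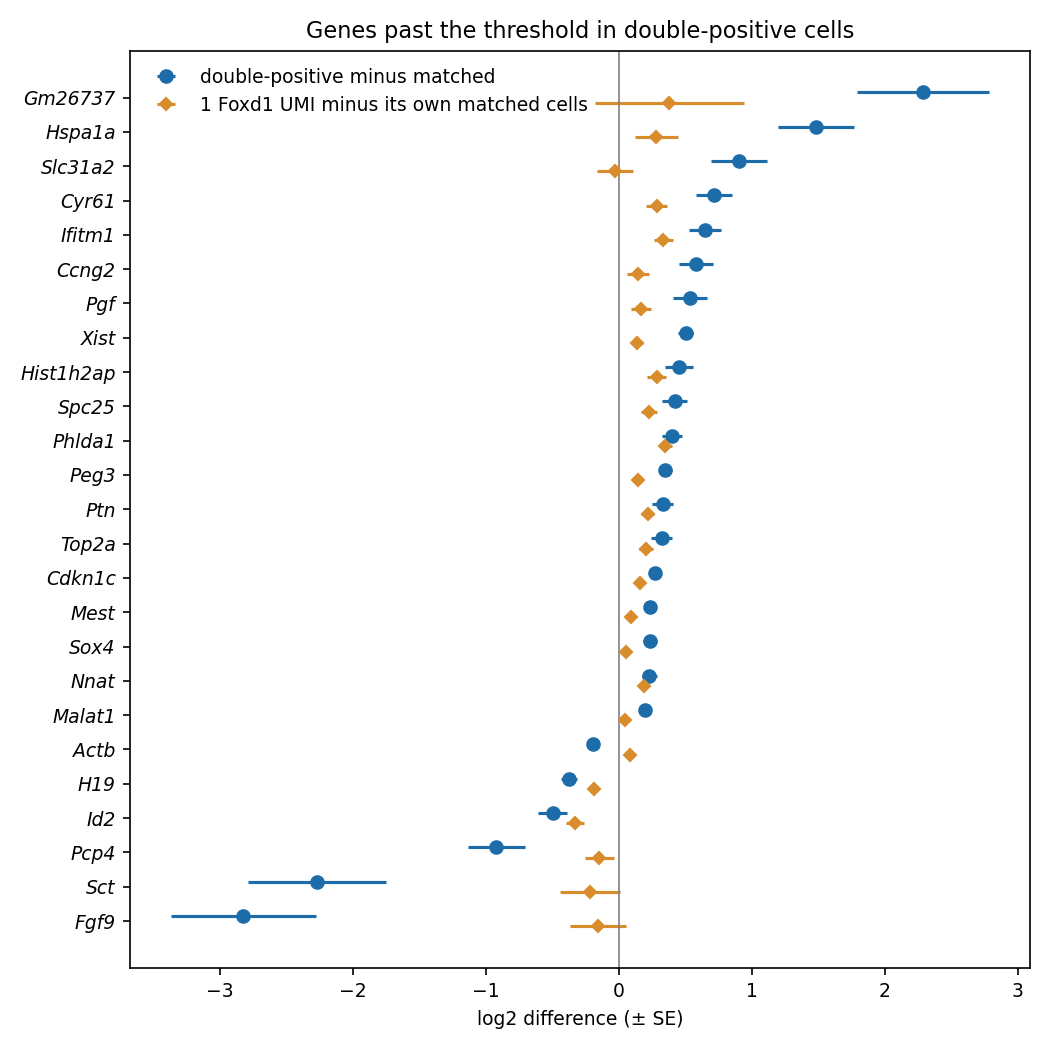
Log2 difference with its SE (horizontal axis) of the 25 genes that passed in double-positive cells, in those cells (circles) and in cells with 1 Foxd1 UMI (diamonds), each against its own matched cells. The diamonds lie nearer to 0 for all 25 genes, and Fgf9 and Slc31a2 lie near 0 in single-UMI cells; the 25 were selected on the circles, which favours larger values there.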

How the data were processed

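The authors made UMI counts per gene and cell with Cell Ranger 1.3.1 on mm10, per the submitters' processing notes, and deposited them as a matrix of 3 joined libraries. No label ties a barcode suffix to a sample name, and filters before deposit are not stated in these sources. Cells with at least 1000 genes and at most 10% mitochondrial UMIs were kept (7898 of 7924). UMIs were summed per library and cell set (28 to 51 members a library) and tested with edgeR 4.0.16 (quasi-likelihood, TMM, filterByExpr, Benjamini-Hochberg, library as a block, two-sided, threshold 0.05), without the 6 genes of the rule. Members, matched cells, single-UMI cells and their matches shared 1 fit. CPM were computed from the sums without TMM. SEs were derived from the test statistic. Thinning used a fixed seed, and the fit was tested on simulated data. DESeq2 1.42.0 and scanpy 1.11.5 (Scrublet) served alternatives.

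Named genes were up to 12 a direction past the threshold, in 1 direction in all 3 libraries and at 10 CPM or more, filled to 5 by p, plus up to 4 members of each of 31 lists, or the 2 most abundant of a list without calls. Members and lists were chosen with earlier results of these data known. Coordinates are from GENCODE on the mm10 build. Both sums of a comparison come from the same tube, which is the pairing used.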

Additional observations from a re-analysis of the deposited data

Results flagged for a closer look

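For 2 genes the contrast of double-positive cells differed from that of single-UMI cells by a test of the difference itself (edgeR, interaction of the 2 contrasts). Xist was further raised in double-positive cells, by 0.36 on the log2 scale (adjusted p = 0.0427), with members above matched cells in 3 of 3 libraries. Xist and no Y-linked UMI were held by 53.9% of members and 47.5% of their matched cells. For single-UMI cells and their matched cells the shares were 48.1% and 46.4%. The difference was tested in the main fit only, and not with cells matched for Xist and Y-linked detection. Actb was further lowered, with a difference of -0.28 (adjusted p = 0.0427), and was below matched cells in 2 of 3 libraries.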

How the results depend on the processing

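Member sums hold 28 to 51 cells and vary more than the larger sums that share their spread estimate, which limits the calls against matched cells. Their 25 calls became 0 without the replicate block (472 genes at an unadjusted p under 0.05; edgeR), 3 with DESeq2, 10 with only members and matched cells in the fit, and 2 to 60 when a library was left out. They were 1 with 1 match per member (added after seeing the data), 136 without matching, 38 with random matches within deciles of total UMIs, 11 with Wnt4-free comparison cells, 7 with at least 3 Foxd1 UMIs and 14 without cells holding a defining stroma marker. The filter on low counts lifted gave 37, and matching for Xist and Y-linked UMIs (also added later) 17, with 14 of the 25 kept. The 15 calls of single-UMI cells became 0 with DESeq2 (156 unadjusted), 0 without the replicate block (180 unadjusted), 28 without a filter, 7 with Wnt4-free cells, and 2 to 18 with a library left out. The 531 calls against collagen cells became 160 with DESeq2, 130 without the block and 330 to 500 with a library left out. The share of 1.68% became 0.304% at 3 Foxd1 UMIs and ranged from 1.32 to 2.02% with a library left out. Of the called genes, Top2a reversed at 3 Foxd1 UMIs (-0.065) and Hist1h2ap too (-0.23). With a library left out, Gm26737 ranged from -0.94 to 3.73 and Hist1h2ap from -0.12 to 0.52, both negative without library 1. The cause was not tested.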
